A study of Homo sapiens with 6 samples.

Results

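The 49 genes described here encode enzymes that add or remove methyl and acetyl groups on histones. They were taken from a fixed list by symbol, and each was read on the probe set that carries its symbol alone and has the highest mean over the 6 arrays. All 49 of 49 listed genes had such a probe set, among 18417 genes measured in this way. All samples were grown from WA09, a widely used line of human embryonic stem cells: undifferentiated cells kept in StemPro defined medium (hESC), ISL1+ nascent mesoderm cells (INM) at day 4 and smooth muscle cells (SMC) at day 21. INM and SMC received Wnt3a (25 ng/ml) with BMP4 (50 ng/ml) in the same defined medium. Total RNA was hybridised to Affymetrix expression arrays, with 1 array per sample and 2 arrays per group. All groups come from 1 line, and nothing in the labels says that replicates were separate cultures, so p-values measure the spread between these arrays, which may be technical.

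Histone methylation is written by SET domain enzymes, by DOT1L and by arginine methyltransferases, and it is removed by the flavin-dependent LSD demethylases and by the larger family of JmjC demethylases, which use iron and oxoglutarate. Acetylation is written by acetyltransferases such as EP300 and KAT2A and is removed by zinc-dependent histone deacetylases (HDACs) and by NAD-dependent sirtuins. Several of these enzymes also act on proteins other than histones, and messenger RNA levels say nothing of their activity. The series concerns how nucleosome positions change as stem cells differentiate, and the comparisons ask which of these genes differ after 4 days, between day 4 and day 21, and over the whole course.

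Stage markers were read first. SOX2, a pluripotency factor, had log2 signals of 11.44 and 11.47 in hESC, 5.63 and 5.81 in INM, with 5.76 and 5.61 in SMC. Of the 10 stem cell markers, SOX2 had the largest fall in INM relative to hESC; 6 fell and 4 were not called, with a list median of -1.55, and all 10 fell in SMC relative to hESC (median -4.66). Their summed log2 signal was 14.47 to 14.51 in hESC, 13.09 to 13.47 in INM and 10.19 to 10.25 in SMC. HAND1, a mesoderm factor, had 6.10 and 6.09 in hESC, 12.32 and 12.42 in INM, with 7.31 and 7.14 in SMC. Of 10 nascent mesoderm markers, 6 rose, MESP1 fell and 3 were not called in INM relative to hESC, with a list median of 0.79. HAND1 had the largest rise of the list. At day 21, 5 were higher than in hESC (ISL1, HAND1, GATA4, PDGFRA and FOXF1), 3 were lower and 2 were not called (median 0.52). Between INM and SMC, PDGFRA rose, ISL1, HAND1 and MIXL1 fell and 6 were not called (median -0.09). The summed log2 signal of the mesoderm list was 11.10 to 11.12 in hESC, 12.89 to 13.51 in INM and 12.26 to 12.29 in SMC. ACTA2, smooth muscle actin, had 6.44 and 6.41 in hESC, 11.97 and 10.85 in INM, with 13.09 and 13.03 in SMC. Of 10 smooth muscle markers, 8 rose and 2 were not called in SMC relative to hESC, with a list median of 1.05. In INM relative to hESC, 6 of them already rose, ACTG2 fell and 3 were not called, with a median of 1.02. In SMC relative to INM, ACTA2, LMOD1 and ACTG2 rose, MYOCD fell and 6 were not called, with a median of 0.21. MYH11, the smooth muscle myosin that marks mature cells, stayed between 5.43 and 5.82 on all 6 arrays and was not called at day 21 (log2 change -0.13, adjusted p = 0.507). The INM arrays differed most between themselves: 700 of 18417 genes lay more than 1 log2 unit apart there, against 16 in hESC and 11 in SMC. INM replicate 2 was the higher of the pair in 37 of the 49 enzyme genes (median difference 0.14 log2 units) and in 10 of 10 markers of dividing cells, where the summed log2 signal was 13.37 to 13.47 in hESC, 12.49 to 13.69 in INM and 12.34 to 12.37 in SMC. All 7 fibroblast markers rose in SMC relative to hESC, and their summed log2 signal was 11.50 to 11.53 in hESC, 12.87 to 13.44 in INM and 14.84 to 14.88 in SMC. Of 5 endothelial markers, ERG rose in INM relative to hESC, PECAM1 and ERG rose in SMC relative to INM, and PECAM1, CDH5 and ERG rose in SMC relative to hESC, with a median of 0.95 and a summed log2 signal of 9.32 to 9.37 in hESC, 8.96 to 10.69 in INM and 10.31 to 10.33 in SMC. Relative to hESC, the 6 cardiac markers measured gave a rise of MYL7 and a fall of TNNI3 in INM and a fall of TNNI3 in SMC, the 5 neural markers rises of NES and MAP2 and a fall of OTX2 in INM and a fall of OTX2 in SMC, and the 4 endodermal markers a rise of CXCR4 in both. In SMC relative to INM, MYL7, NES and MAP2 fell and CXCR4 rose. The part of these shifts in the results below was not tested, and in bulk RNA fewer cells of a type and less RNA per cell cannot be told apart.

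Signals of the 49 genes were mostly higher than those of all genes. Their mean log2 signals over the 6 arrays ran between 5.68 for SETDB2 and 10.87 for SETD5, with a median of 8.41 against 7.18 over all genes, and 41 of the 49 lay above that all-gene median. No array value of any of the 49 genes fell under 5.04, the lowest array median of the unnamed probe sets. That median was higher on the hESC arrays, at 5.62 and 5.65. On hESC replicate 1, SETDB2 (5.85), SIRT4 (5.86), KAT2B (5.90) and SETD7 (5.95) lay close to it. The rises of KAT2B and SETD7 relative to hESC therefore start from low signals. The plot of all arrays shows the range. Within a pair of arrays the spread of the enzyme genes was small, with a pooled SD of 0.11 in hESC, 0.20 in INM and 0.09 in SMC, and KAT2B in INM was the only member whose pair differed by more than 1.

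**Figure D1:**
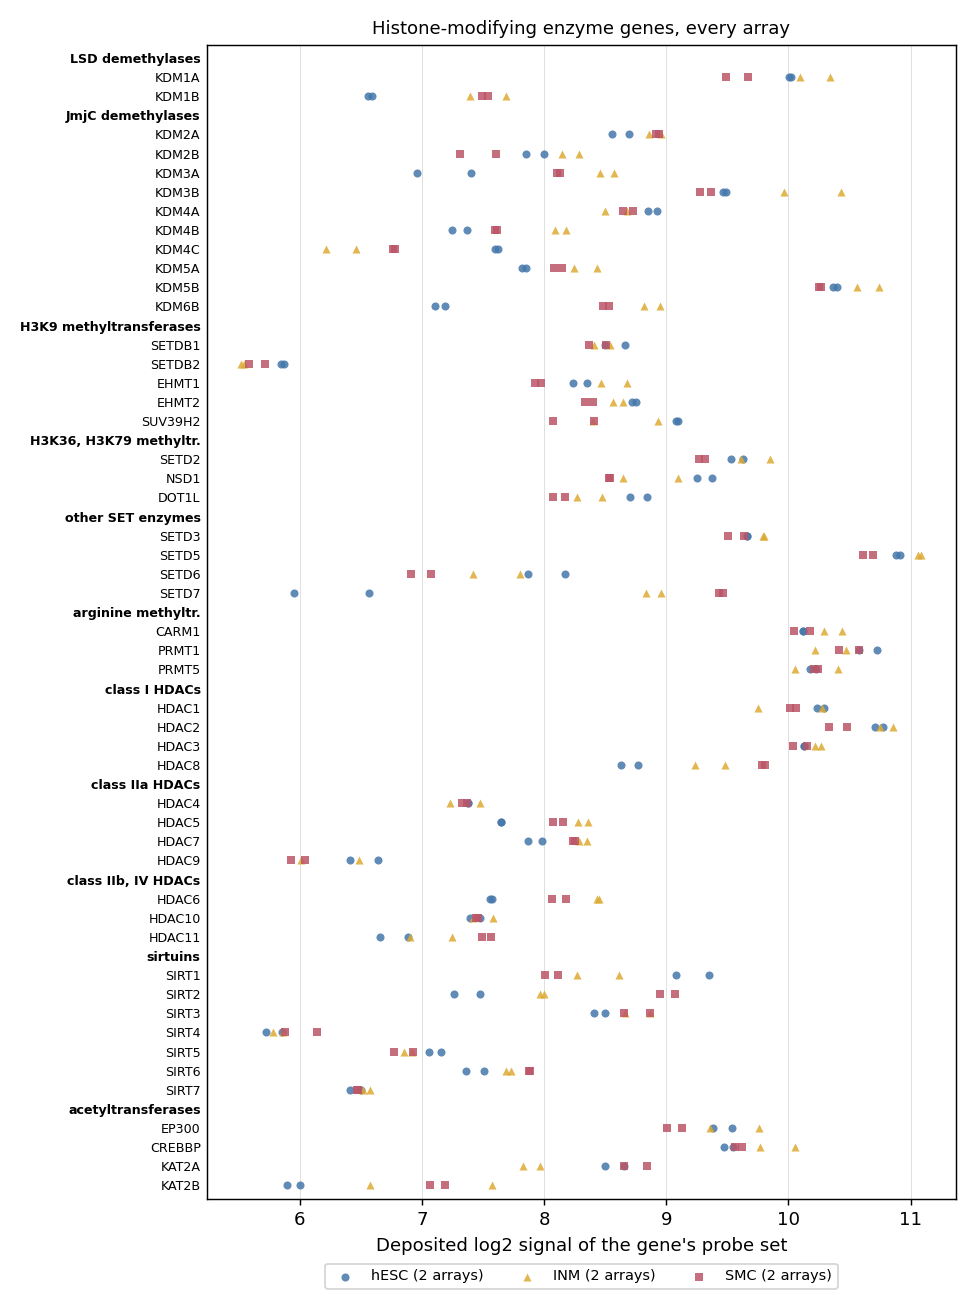
Deposited log2 signal (horizontal axis) of each of the 49 enzyme genes (rows, grouped by class) on every array; circles are hESC, triangles INM and squares SMC, with 2 arrays per group. SETD7 shows the widest gap between hESC and both derivatives, and the 2 INM arrays of KAT2B stand apart at 6.57 and 7.58.

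In INM relative to hESC, 13 of the 49 genes rose and 3 fell, which is 26.5% and 6.12% of them, against 18.9% and 14.8% of all 18417 genes (limma, Benjamini-Hochberg adjusted p under 0.05 over all genes). The risers were KDM1B, KDM3A, KDM3B, KDM4B, KDM5A, KDM6B, SETD7, HDAC5, HDAC6, HDAC7, HDAC8, SIRT2 and KAT2B, and the genes that fell were KDM4C, SIRT1 and KAT2A. In SMC relative to INM, 2 genes rose (SIRT2 and KAT2A) and 6 fell (KDM1A, KDM2B, KDM3B, KDM4B, EHMT1 and SETD5), or 4.08% and 12.2% against 9.94% and 11.1% of all genes. In SMC relative to hESC, 11 rose and 9 fell, or 22.4% and 18.4% against 19.7% and 17.6% of all genes. In either direction, 32.7% of the 49 genes were called in INM versus hESC, 16.3% between the derivatives and 40.8% in SMC versus hESC, beside 33.8%, 21% and 37.2% of all genes. The arrays of the groups did not overlap for 39, 35 and 42 of the 49 genes in the same order of comparisons, beside 68.2%, 62% and 75.3% of all genes. The median change of the 49 genes was 0.16, -0.20 and -0.03 log2 units, beside -0.03, -0.02 and -0.05 over all genes. The 3 comparisons share arrays and are given side by side.

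The median size of the changes was close to that of all genes. The median absolute change of the 49 genes was 0.30 for INM over hESC, 0.26 for SMC over INM and 0.32 for SMC over hESC, beside 0.32, 0.24 and 0.33 over all genes. Changes above 1 log2 unit were seen in 5 of the 49 genes (10.2%, against 11.7% of all genes) for INM over hESC, in 1 (2.04%, against 8.18%) for SMC over INM, and in 7 (14.3%, against 15.3%) for SMC over hESC. In all, 27 of the 49 genes were called in at least 1 comparison, and SIRT2 was the only one called in all 3. The matching shares of all genes were not computed, so these counts do not set the enzyme genes apart. The counts moved with single arrays: without hESC replicate 1 there were 7 risers in INM versus hESC, without hESC replicate 2 there was 1 fall, and without INM replicates 1 and 2 there were 5 and 9 falls. In SMC versus INM there were 0 falls without SMC replicate 1, 1 without SMC replicate 2 and 17 without INM replicate 1, and the rises numbered 5 without INM replicate 2 and 1 without SMC replicate 2. In SMC versus hESC, leaving out either hESC array or either SMC array left 6 or 7 rises and 3 to 5 falls, and leaving out either INM array gave 14 rises and 14 falls, the rises being within 1.5 times the count from all arrays. Each array was also centred on its median over all 33297 probe sets, unnamed ones included. This shifted every change by 0.19 in INM versus hESC, by -0.05 in SMC versus INM and by 0.13 in SMC versus hESC. The split was then 23 rises and 3 falls in INM versus hESC and 16 rises and 6 falls in SMC versus hESC. Medians over the 18417 genes alone moved the opposite way, being lowest in hESC (7.10 on both arrays) and highest in INM (7.17, 7.19). Centring on the gene medians was not run, so these splits do not show its effect.

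**Figure D2:**
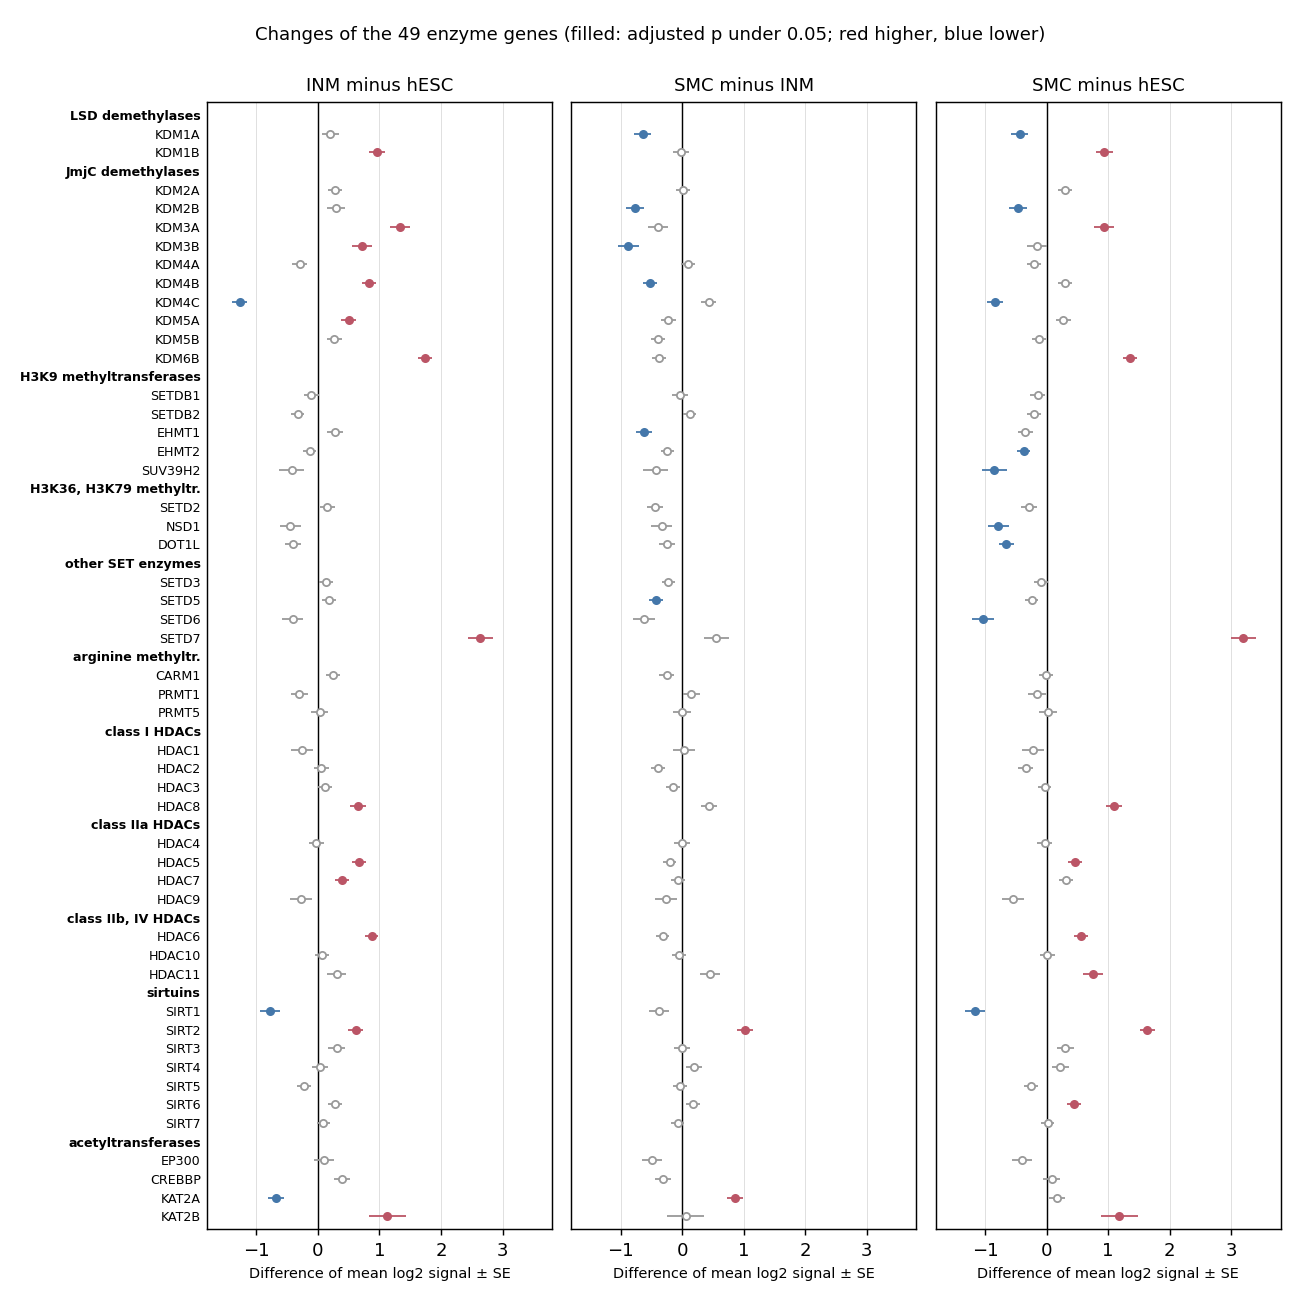
Difference of group means in log2 signal ± SE (horizontal axis) for each enzyme gene in INM minus hESC (left), SMC minus INM (middle) and SMC minus hESC (right); filled points have an adjusted p under 0.05, red higher and blue lower. SETD7 reaches 2.64 in INM minus hESC and 3.19 in SMC minus hESC, and the called genes of SMC minus INM are mostly blue.

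Among the JmjC demethylases, 5 of 10 rose (50%) and 1 fell (10%) in INM relative to hESC, beside 18.9% and 14.8% of all genes. In SMC versus INM, 0 rose and 3 fell (30%), beside 9.94% and 11.1% of all genes. In SMC versus hESC, 2 rose and 2 fell (20% each), close to the 19.7% and 17.6% of all genes. These 10 genes make a short list. KDM6B, which removes the repressive methyl mark of lysine 27 of histone H3, had log2 signals of 7.19 and 7.11 in hESC, 8.82 and 8.95 in INM, with 8.48 and 8.53 in SMC. It rose 3.33-fold in INM relative to hESC (log2 change 1.74, SE 0.11, adjusted p = 0.000179) and 2.56-fold in SMC relative to hESC (1.36, SE 0.11, adjusted p = 0.000268), and no array of either derivative reached down to the hESC arrays. KDM3A, a demethylase of lysine 9 that is known as a hypoxia-responsive gene, had 6.96 and 7.40 in hESC, 8.57 and 8.46 in INM, with 8.13 and 8.10 in SMC, a rise of 2.52-fold in INM (1.33, SE 0.16, adjusted p = 0.00174) and 1.92-fold in SMC (0.94, SE 0.16, adjusted p = 0.00504), both against hESC. Its paralogue KDM3B had 9.49 and 9.46 in hESC, 9.96 and 10.43 in INM, with 9.28 and 9.37 in SMC. KDM3B rose 1.65-fold in INM relative to hESC and fell by 0.87 log2 units in SMC relative to INM (SE 0.17, adjusted p = 0.0142), so that SMC and hESC differed by -0.15 (SE 0.17, adjusted p = 0.513). KDM5A, a demethylase of lysine 4 of histone H3, rose by 0.50 in INM relative to hESC (SE 0.12, adjusted p = 0.0196).

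KDM4B and KDM4C, paralogues that remove methyl groups from lysines 9 and 36 of histone H3, changed in opposite directions in INM relative to hESC. KDM4B had 7.37 and 7.25 in hESC, 8.18 and 8.09 in INM, with 7.61 and 7.60 in SMC. It rose 1.77-fold in INM relative to hESC (0.82, SE 0.11, adjusted p = 0.00257) and fell by 0.53 in SMC relative to INM (SE 0.11, adjusted p = 0.0199). KDM4C had 7.60 and 7.62 in hESC, 6.22 and 6.46 in INM, with 6.77 and 6.78 in SMC. It fell 2.41-fold in INM relative to hESC (-1.27, SE 0.13, adjusted p = 0.000762) and 1.79-fold in SMC relative to hESC (-0.84, SE 0.13, adjusted p = 0.00269). Both INM arrays were the lowest of the 6 for KDM4C and the highest of the 6 for KDM4B. The step of KDM4C from INM to SMC was not called (0.43, SE 0.13, adjusted p = 0.0545). The third paralogue, KDM4A, was not called, at -0.30 (SE 0.12, adjusted p = 0.103) in INM versus hESC.

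Because the pair moved in opposite directions, the 250 bases before the RefSeq start sites of both genes (GRCh38.p14) are shown, KDM4B at chr19:4968863-4969112 and KDM4C at chr9:6757723-6757972, both on the plus strand. Capitals mark matches on either strand to the GC box (GGGCGG), the CCAAT box (CCAAT), the E box (CACGTG) and the TATA box (TATAAA), which occur in 42.6%, 32.0%, 6.34% and 10.7% of 35116 RefSeq promoter windows of the same length.
KDM4B: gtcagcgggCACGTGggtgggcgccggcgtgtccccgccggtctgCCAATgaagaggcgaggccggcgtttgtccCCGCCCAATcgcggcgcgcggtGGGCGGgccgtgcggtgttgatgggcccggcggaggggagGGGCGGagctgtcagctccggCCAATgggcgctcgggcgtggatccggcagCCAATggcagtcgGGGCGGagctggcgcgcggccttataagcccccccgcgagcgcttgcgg
KDM4C: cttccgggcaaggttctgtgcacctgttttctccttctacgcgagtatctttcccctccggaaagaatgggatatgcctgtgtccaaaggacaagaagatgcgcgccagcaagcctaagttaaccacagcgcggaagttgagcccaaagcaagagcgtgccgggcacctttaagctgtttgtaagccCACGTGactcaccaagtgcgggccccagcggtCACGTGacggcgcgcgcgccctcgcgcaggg
KDM4B has 4 GC boxes, 4 CCAAT boxes and 1 E box, with 1 GC box and 1 CCAAT box that overlap, and KDM4C has 2 E boxes and no match to the other 3 motifs. The windows hold 36 and 21 CpG pairs, where the median window holds 11. These matches describe the letters only. The promoter table matched 46 of the 49 enzyme genes.

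Of the remaining JmjC genes, only KDM2B was called. KDM2B, a demethylase with a CpG-binding zinc finger, had 7.85 and 7.997 in hESC, 8.15 and 8.29 in INM, with 7.31 and 7.60 in SMC, so the stages did not overlap. It fell by 0.76 in SMC relative to INM (SE 0.14, adjusted p = 0.0131) and by 0.47 in SMC relative to hESC (SE 0.14, adjusted p = 0.0427). KDM2A and KDM5B were called in no comparison, and KDM5B had log2 signals between 10.25 and 10.74 on the 6 arrays. The calls of KDM6B, KDM3A and KDM4C were kept in all 6 fits that left out 1 array, as was the day 4 rise of KDM4B. Other calls ended: KDM3B in INM versus hESC without either hESC array and in SMC versus INM without either SMC array (adjusted p between 0.000449 and 0.109 over both sets of fits), KDM4B in SMC versus INM without either SMC array (0.0128 to 0.136), and KDM2B in SMC versus INM without SMC replicate 1 (0.00576 to 0.103). The calls of KDM2B in SMC versus hESC (0.0188 to 0.245) and of KDM5A (0.00637 to 0.096) ended without any 1 hESC or SMC array, and that of KDM2B also with median centring.

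The LSD demethylases, which act with the CoREST corepressor (KDM1A) or alone on lysine 4 of histone H3, went separate ways by day 21. KDM1B had 6.56 and 6.59 in hESC, 7.69 and 7.39 in INM, with 7.54 and 7.49 in SMC. It rose 1.95-fold in INM (0.96, SE 0.13, adjusted p = 0.00272) and 1.92-fold in SMC (0.94, SE 0.13, adjusted p = 0.00219), both relative to hESC, and both calls were kept in all 6 fits that left out 1 array. KDM1A had 10.004 and 10.02 in hESC, 10.09 and 10.34 in INM, with 9.67 and 9.49 in SMC. It fell by 0.64 in SMC relative to INM (SE 0.14, adjusted p = 0.0195) and by 0.43 in SMC relative to hESC (SE 0.14, adjusted p = 0.0448). Both KDM1A calls ended without any 1 hESC or SMC array (adjusted p between 0.00377 and 0.234), and the second also ended with median centring.

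The largest change among the 49 genes belonged to SETD7, a SET domain enzyme that places a single methyl group on lysine 4 of histone H3 and on several other proteins. SETD7 had log2 signals of 5.95 and 6.56 in hESC, 8.96 and 8.84 in INM, with 9.47 and 9.43 in SMC. It rose 6.22-fold in INM relative to hESC (2.64, SE 0.20, adjusted p = 0.000295) and 9.14-fold in SMC relative to hESC (3.19, SE 0.20, adjusted p = 9e-05), and both calls were kept in all 6 fits that left out 1 array. The step between day 4 and day 21, at 0.55 (SE 0.20, adjusted p = 0.103), did not pass the test although the arrays did not overlap. That SE pools the 3 groups, whose SD was 0.43 in hESC, 0.09 in INM and 0.02 in SMC. The hESC pair was the one that lay furthest apart, so the fold depends on it: the change in SMC relative to hESC was 2.89 to 3.50 over the fits with 1 array left out.

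Of the 4 genes of this class, SETD7 included, SETD6 fell in SMC versus hESC and SETD5 in SMC versus INM. That is 25% of a short list each time, beside 17.6% and 11.1% of all genes. SETD6, which is known to methylate the NF-kappaB subunit RELA, had 7.87 and 8.17 in hESC, 7.41 and 7.80 in INM, with 7.07 and 6.91 in SMC. It fell 2.04-fold in SMC relative to hESC (-1.03, SE 0.18, adjusted p = 0.00481), a call kept in all 6 fits that left out 1 array. SETD5 had the highest mean signal of the 49 probe sets, between 10.61 and 11.09 on the 6 arrays, and fell by 0.42 in SMC relative to INM (SE 0.11, adjusted p = 0.0364), a call that ended without any 1 hESC or SMC array (0.0291 to 0.207). SETD3, an actin histidine methyltransferase that is named with the histone enzymes, was called in no comparison and had changes between -0.22 and 0.13.

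Among the 5 enzyme genes classed here as methyltransferases of lysine 9 of histone H3, whose mark is typical of silent chromatin, none was called higher in any of the 3 comparisons, while SUV39H1, kept in the list of other methyltransferases, was called higher in both derivatives relative to hESC. Of these 5, 0 rose and 0 fell in INM versus hESC, EHMT1 fell in SMC versus INM, and EHMT2 and SUV39H2 fell in SMC versus hESC. The shares higher and lower were 0% and 0%, then 0% and 20%, then 0% and 40%. Over all genes they were 18.9% and 14.8%, 9.94% and 11.1%, and 19.7% and 17.6%, and 5 genes make a short list. SUV39H2 had 9.08 and 9.10 in hESC, 8.40 and 8.93 in INM, with 8.41 and 8.07 in SMC, a fall of 1.80-fold in SMC relative to hESC (-0.85, SE 0.20, adjusted p = 0.0177). EHMT2 had 8.75 and 8.72 in hESC, 8.57 and 8.64 in INM, with 8.33 and 8.40 in SMC, and fell by 0.37 in SMC relative to hESC (SE 0.11, adjusted p = 0.0357). EHMT2 lies on 2 probe sets with identical values. Its partner EHMT1 had 8.24 and 8.35 in hESC, 8.46 and 8.68 in INM, with 7.92 and 7.98 in SMC, and fell by 0.62 in SMC relative to INM (SE 0.13, adjusted p = 0.0166). SETDB1 and SETDB2 were not called, and SETDB1 had 95% intervals for its change of -0.41 to 0.20 in INM versus hESC and -0.45 to 0.16 in SMC versus hESC. Each of these 3 calls ended with single arrays left out: EHMT1 without either SMC array (adjusted p between 0.00361 and 0.121), SUV39H2 without either hESC array or SMC replicate 2 (0.00112 to 0.123), and EHMT2 without any 1 hESC or SMC array (0.0158 to 0.183) and also with median centring. Of 10 markers of dividing cells, 5 also fell in SMC relative to hESC, with a list median of -1.03, and the part of cell division in the fall of SUV39H2 was not tested.

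The writers of lysine 36 and lysine 79 methylation, marks of transcribed genes, had their lowest group means in SMC. NSD1 had 9.25 and 9.38 in hESC, 8.64 and 9.09 in INM, with 8.53 and 8.54 in SMC, and fell 1.72-fold in SMC relative to hESC (-0.78, SE 0.17, adjusted p = 0.011). DOT1L, the lysine 79 enzyme, had 8.70 and 8.84 in hESC, 8.27 and 8.47 in INM, with 8.17 and 8.07 in SMC, and fell 1.57-fold in SMC relative to hESC (-0.65, SE 0.13, adjusted p = 0.00789). In INM versus hESC, DOT1L lay just outside the threshold at -0.40 (SE 0.13, adjusted p = 0.0504). SETD2 was called in no comparison and stood at -0.44 (SE 0.13, adjusted p = 0.0519) in SMC versus INM. The call of NSD1 ended without any 1 hESC or SMC array (adjusted p between 0.000488 and 0.0764), and that of DOT1L without hESC replicate 2 or SMC replicate 2 (0.00157 to 0.069).

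None of the 3 arginine methyltransferases passed the test in any comparison. PRMT5, which forms symmetric dimethylarginine, had 10.23 and 10.18 in hESC, 10.05 and 10.40 in INM, with 10.21 and 10.24 in SMC, and its 95% interval in SMC versus hESC was -0.32 to 0.37. CARM1, a coactivator enzyme, had 10.12 and 10.12 in hESC, 10.29 and 10.44 in INM, with 10.04 and 10.17 in SMC, with an interval of -0.29 to 0.27 in SMC versus hESC. PRMT1, the main enzyme of asymmetric dimethylarginine, had an interval of -0.49 to 0.18 in SMC versus hESC. With 2 arrays per group, these intervals leave room for changes in either direction, and a missed threshold does not show that levels were equal.

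Among the acetyltransferases, the paralogues KAT2A and KAT2B, alternative catalytic subunits of the SAGA coactivator, changed in opposite directions in INM relative to hESC. KAT2A had 8.50 and 8.65 in hESC, 7.82 and 7.97 in INM, with 8.66 and 8.84 in SMC. It fell 1.60-fold in INM relative to hESC (-0.68, SE 0.13, adjusted p = 0.00912) and rose 1.80-fold in SMC relative to INM (0.85, SE 0.13, adjusted p = 0.0063), so both INM arrays lay below all other arrays. KAT2B had 5.90 and 5.999 in hESC, 6.57 and 7.58 in INM, with 7.07 and 7.19 in SMC, and rose 2.18-fold in INM (1.13, SE 0.30, adjusted p = 0.0292) and 2.27-fold in SMC (1.18, SE 0.30, adjusted p = 0.0221), both relative to hESC. The INM arrays of KAT2B stand on either side of the SMC arrays. Their SD was 0.71, against 0.07 in hESC and 0.09 in SMC. The fit pools the 3 groups, so the INM spread also enters the SE of 0.30 in SMC versus hESC. Without INM replicate 1 the INM rise was 1.63 and KAT2B was called lower in SMC relative to INM, at -0.45, whereas all arrays gave 0.05; without INM replicate 2 the INM rise was 0.62 and KAT2B was called higher in SMC relative to INM, at 0.56.

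The windows of 250 bases before the start sites of this pair are shown with the same motifs in capitals, KAT2A at chr17:42121368-42121617 on the minus strand and KAT2B at chr3:20040196-20040445 on the plus strand.
KAT2A: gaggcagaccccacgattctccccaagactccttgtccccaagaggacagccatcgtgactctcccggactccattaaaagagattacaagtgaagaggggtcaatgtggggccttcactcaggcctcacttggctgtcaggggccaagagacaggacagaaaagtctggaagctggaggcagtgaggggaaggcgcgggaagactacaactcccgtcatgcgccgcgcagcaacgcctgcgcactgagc
KAT2B: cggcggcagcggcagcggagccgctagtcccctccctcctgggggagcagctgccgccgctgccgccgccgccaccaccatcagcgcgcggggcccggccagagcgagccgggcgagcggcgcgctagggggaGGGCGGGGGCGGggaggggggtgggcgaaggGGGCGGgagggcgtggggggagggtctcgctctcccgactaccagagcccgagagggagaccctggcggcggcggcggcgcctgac
KAT2B has 3 GC boxes and 33 CpG pairs, and KAT2A has none of the 4 motifs and 11 CpG pairs, the median of all windows.

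EP300 and CREBBP, the large paralogous coactivators that acetylate enhancer histones, were called in no comparison. EP300 had 9.38 and 9.53 in hESC, 9.36 and 9.75 in INM, with 9.003 and 9.13 in SMC. CREBBP had 9.47 and 9.55 in hESC, 9.77 and 10.05 in INM, with 9.57 and 9.62 in SMC. The nearest to a call was CREBBP at 0.40 in INM versus hESC (SE 0.13, adjusted p = 0.0615). Among the KAT2 calls, those of KAT2B ended without any 1 hESC or SMC array (adjusted p between 6.44e-05 and 0.147), and those of KAT2A ended in INM versus hESC without hESC replicate 2 (0.00438 to 0.0661) and in SMC versus INM without SMC replicate 2 (0.00262 to 0.0704).

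Among the class I deacetylases, HDAC1, HDAC2 and HDAC3 act in nuclear corepressor complexes. Of the 4 members measured only HDAC8 passed the test. Against hESC that is 25% higher in INM and in SMC, beside 18.9% and 19.7% of all genes. HDAC8, the member that is known to deacetylate cohesin and that has been described in smooth muscle, had 8.63 and 8.77 in hESC, 9.24 and 9.48 in INM, with 9.79 and 9.81 in SMC. It rose 1.58-fold in INM (0.66, SE 0.13, adjusted p = 0.00999) and 2.14-fold in SMC (1.10, SE 0.13, adjusted p = 0.00104), both relative to hESC. The 3 stages did not overlap, but the step from INM to SMC was not called (0.44, SE 0.13, adjusted p = 0.0572). HDAC1, HDAC2 and HDAC3 had high signals, between 9.75 and 10.85 on all arrays. HDAC1 had a change of -0.22 in SMC versus hESC (95% interval -0.65 to 0.21), and HDAC3 one of -0.03 (-0.30 to 0.23). HDAC2 stood at -0.34 (-0.62 to -0.06), whose adjusted p of 0.0643 missed the threshold. The day 21 rise of HDAC8 was kept in all 6 fits that left out 1 array, and its day 4 rise ended without hESC replicate 1 (adjusted p between 0.00234 and 0.0756).

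Class IIa deacetylases shuttle between nucleus and cytoplasm and bind MEF2 transcription factors. HDAC5 had 7.65 and 7.65 in hESC, 8.28 and 8.36 in INM, with 8.07 and 8.16 in SMC, and rose 1.59-fold in INM (0.67, SE 0.11, adjusted p = 0.00489) and 1.38-fold in SMC (0.47, SE 0.11, adjusted p = 0.016), both relative to hESC. HDAC7 had 7.87 and 7.99 in hESC, 8.35 and 8.28 in INM, with 8.25 and 8.24 in SMC, and rose by 0.39 in INM relative to hESC (SE 0.11, adjusted p = 0.0355). HDAC4 did not pass the test, with a change of -0.03 in SMC versus hESC (95% interval -0.33 to 0.27), and HDAC9 stood at -0.54 there (SE 0.18, adjusted p = 0.0572). The day 4 rise of HDAC5 was kept in all 6 fits that left out 1 array. The day 21 rise of HDAC5 ended without any 1 hESC or SMC array (adjusted p between 0.00584 and 0.114), and the rise of HDAC7 ended in every such fit except that without INM replicate 2 (0.028 to 0.177).

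Of the MEF2 factors, 2 of 3 rose in INM relative to hESC and in SMC relative to hESC. That is 66.7% of a short list each time, beside 18.9% and 19.7% of all genes. MEF2C had 5.72 and 6.04 in hESC, 10.59 and 7.81 in INM, with 9.04 and 8.96 in SMC, with changes of 3.32 in INM versus hESC (SE 0.78, adjusted p = 0.0189) and 3.12 in SMC versus hESC (SE 0.78, adjusted p = 0.0207). The INM arrays of MEF2C lay on either side of SMC, and without INM replicate 1 the change in INM versus hESC was 1.93 and MEF2C was called higher in SMC relative to INM, at 1.19; without INM replicate 2 these values were 4.71 and -1.59. Its calls against hESC ended without either hESC array and, in SMC versus hESC, also without either SMC array. The fit pools the 3 groups, so the widely spaced INM arrays of MEF2C also enter the SE of 0.78 in SMC versus hESC. MEF2D had 7.56 and 7.54 in hESC, 8.41 and 8.23 in INM, with 8.59 and 8.67 in SMC, and rose by 1.08 in SMC relative to hESC (SE 0.12, adjusted p = 0.000758).

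HDAC6, the class IIb deacetylase of cytoplasmic tubulin, had 7.58 and 7.56 in hESC, 8.43 and 8.45 in INM, with 8.07 and 8.18 in SMC. It rose 1.83-fold in INM (0.87, SE 0.11, adjusted p = 0.00183) and 1.47-fold in SMC (0.56, SE 0.11, adjusted p = 0.00806), both relative to hESC. HDAC11, the only class IV member, had 6.89 and 6.65 in hESC, 7.25 and 6.90 in INM, with 7.57 and 7.49 in SMC, and rose 1.69-fold in SMC relative to hESC (0.76, SE 0.16, adjusted p = 0.0102). HDAC10 was called in no comparison and lay between 7.40 and 7.58 on all arrays. The day 4 rise of HDAC6 was kept in all 6 fits that left out 1 array. The day 21 rises ended for HDAC6 without either hESC array or SMC replicate 2 (adjusted p between 0.00272 and 0.0737) and for HDAC11 without hESC replicate 2 or either SMC array (0.00116 to 0.0759).

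Among the 7 sirtuins, SIRT1 and SIRT2 moved in opposite directions. SIRT2, a mainly cytoplasmic deacetylase of tubulin and of lysine 16 of histone H4, had 7.26 and 7.48 in hESC, 7.97 and 8.0 in INM, with 8.95 and 9.07 in SMC. It rose 1.53-fold in INM relative to hESC (0.61, SE 0.12, adjusted p = 0.0113), 2.03-fold in SMC relative to INM (1.02, SE 0.12, adjusted p = 0.00269) and 3.11-fold in SMC relative to hESC (1.64, SE 0.12, adjusted p = 0.000184), with no overlap between any of the stages. SIRT1, the nuclear sirtuin that acts on histones and on p53, had 9.08 and 9.35 in hESC, 8.27 and 8.61 in INM, with 8.11 and 8.01 in SMC. It fell 1.71-fold in INM relative to hESC (-0.77, SE 0.16, adjusted p = 0.0125) and 2.22-fold in SMC relative to hESC (-1.15, SE 0.16, adjusted p = 0.0021). SIRT6, a nuclear deacetylase of lysine 9 of histone H3, had 7.51 and 7.36 in hESC, 7.73 and 7.68 in INM, with 7.89 and 7.87 in SMC, and rose by 0.45 in SMC relative to hESC (SE 0.11, adjusted p = 0.0219).

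The windows of SIRT1 at chr10:67884406-67884655 on the plus strand and SIRT2 at chr19:38899619-38899868 on the minus strand are shown because the pair changed in opposite directions.
SIRT1: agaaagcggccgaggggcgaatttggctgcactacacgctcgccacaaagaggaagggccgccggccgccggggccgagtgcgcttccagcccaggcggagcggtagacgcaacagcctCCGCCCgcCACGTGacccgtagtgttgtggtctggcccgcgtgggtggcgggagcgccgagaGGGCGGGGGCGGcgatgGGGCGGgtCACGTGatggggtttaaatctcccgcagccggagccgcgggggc
SIRT2: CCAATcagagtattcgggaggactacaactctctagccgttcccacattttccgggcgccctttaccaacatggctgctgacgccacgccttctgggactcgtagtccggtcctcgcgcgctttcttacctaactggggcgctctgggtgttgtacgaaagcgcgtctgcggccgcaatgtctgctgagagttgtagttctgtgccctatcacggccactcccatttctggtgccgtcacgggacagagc
SIRT1 has 4 GC boxes, 2 E boxes and 32 CpG pairs, and SIRT2 has 1 CCAAT box, at the far end of the window, and 20 CpG pairs.

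The mitochondrial sirtuins SIRT3, SIRT4 and SIRT5 and the nucleolar SIRT7 were called in no comparison. SIRT3 stood at 0.30 in SMC versus hESC (SE 0.14, adjusted p = 0.129), SIRT5 at -0.26 (SE 0.12, adjusted p = 0.137), and SIRT7 had a 95% interval of -0.24 to 0.28 there. The day 21 calls of SIRT1 and SIRT2 against hESC, and the rise of SIRT2 in SMC relative to INM, were kept in all 6 fits that left out 1 array. In INM versus hESC the call of SIRT2 ended without hESC replicate 1 (adjusted p between 0.0103 and 0.0794) and that of SIRT1 without hESC replicate 2 (0.00195 to 0.0837), and the call of SIRT6 ended without any 1 hESC or SMC array (0.00913 to 0.121).

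**Figure D3:**
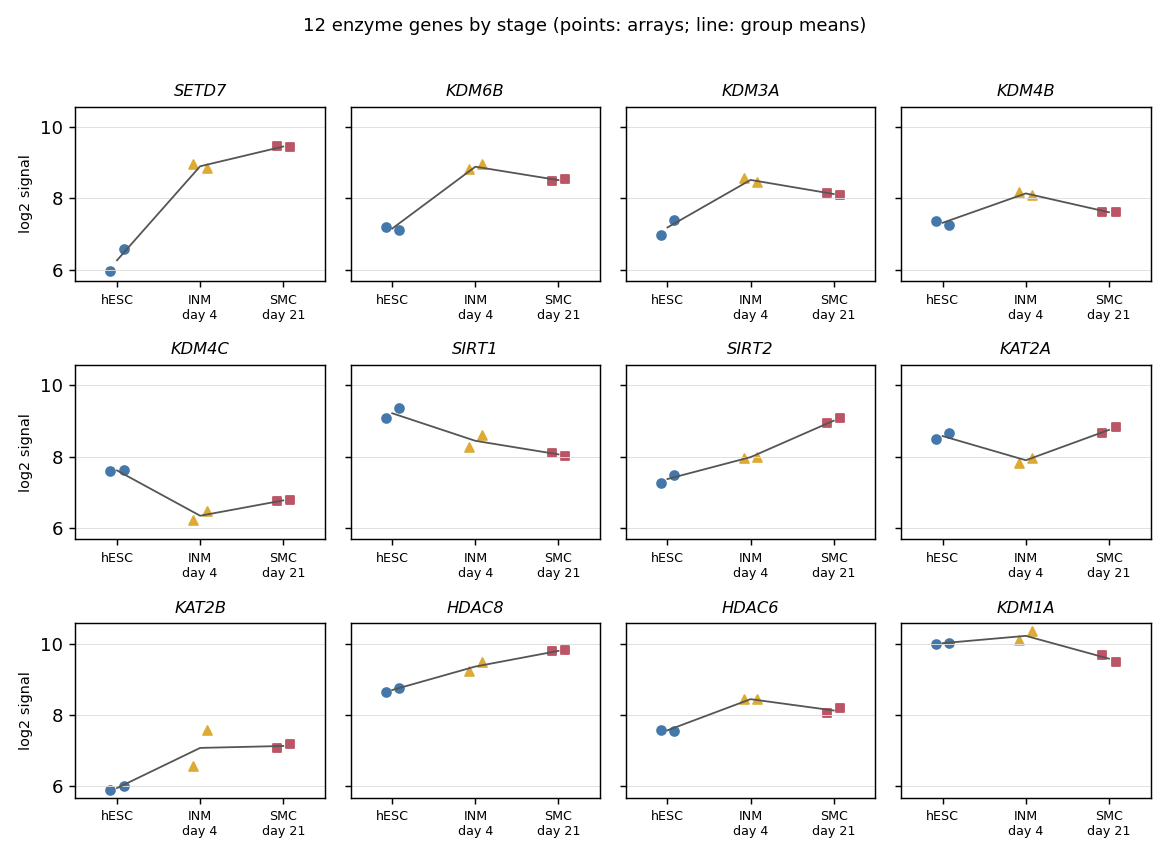
Log2 signal (vertical axis) of 12 enzyme genes at 3 stages (horizontal axis); points are arrays and lines join group means. By group means, SIRT2 and HDAC8 climb at each stage and SIRT1 declines. KAT2A and KDM4C are lowest in INM, and KDM6B, KDM3A, KDM4B and HDAC6 are highest there. The steps from INM to SMC of HDAC8, SIRT1, KDM4C, KDM6B, KDM3A and HDAC6 were not called (limma adjusted p between 0.0545 and 0.151).

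**Figure D4:**
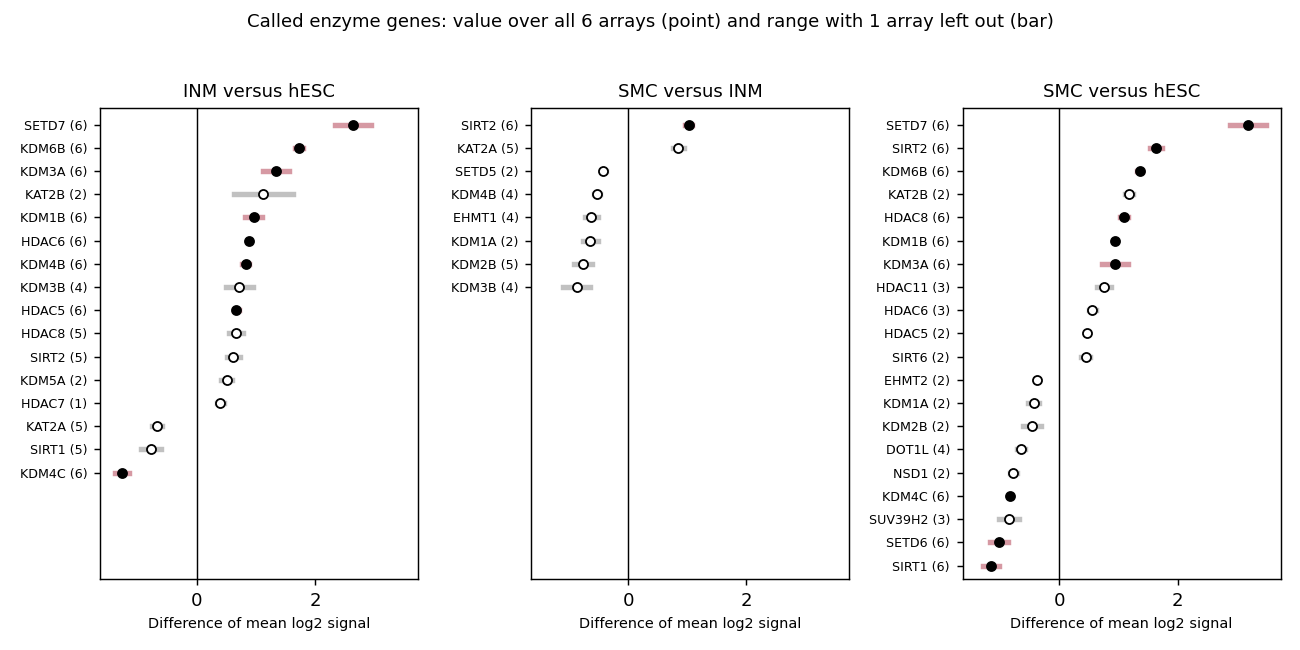
Difference of group means in log2 signal (horizontal axis) for every called enzyme gene in each of the 3 comparisons; points are values over all 6 arrays, bars the range when 1 array is left out, and the number beside each name counts the 6 such fits in which the call was kept (filled points: all 6). Filled points include SETD7, KDM6B, KDM3A, KDM1B, KDM4C and SIRT2 (SMC minus INM and SMC minus hESC), and no bar crosses 0.

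The rest of the pathway was read from 8 lists of other enzymes, complex partners and readers, with 138 of 146 genes measured. The shares of each list stand beside those of all genes, which were 18.9% higher and 14.8% lower in INM versus hESC, 9.94% and 11.1% in SMC versus INM, and 19.7% and 17.6% in SMC versus hESC. In the list of other demethylases and their relatives, 3 of 12 rose (PHF2, KDM4D and KDM5C) and 2 fell (JARID2 and JMJD1C) in INM versus hESC, 0 rose and 4 fell (KDM6A, KDM7A, JARID2 and JMJD1C) in SMC versus INM, and 3 rose and 5 fell in SMC versus hESC. These were 25% and 16.7% of the list in the first comparison, 0% and 33.3% in the second, and 25% and 41.7% in the third. JARID2, a JmjC protein without demethylase activity that serves polycomb complexes, had 11.07 and 11.07 in hESC, 9.99 and 10.08 in INM, with 8.47 and 8.46 in SMC, a change of -2.61 in SMC versus hESC (SE 0.11, adjusted p = 2.43e-05). JMJD1C, the relative of KDM3A and KDM3B, had 10.45 and 10.58 in hESC, 9.80 and 9.90 in INM, with 8.91 and 8.87 in SMC, a change of -1.63 (SE 0.11, adjusted p = 0.000132). KDM6A, the paralogue of KDM6B, had 9.77 and 9.89 in hESC, 9.95 and 10.47 in INM, with 8.48 and 8.43 in SMC, and fell by 1.38 in SMC relative to hESC (SE 0.18, adjusted p = 0.00161), where KDM6B rose. The other called genes of SMC versus hESC were PHF2 at 1.12, RIOX2 at 0.66, KDM5C at 0.47, RIOX1 at -0.44 and KDM8 at -0.40.

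Of 27 other methyltransferases measured, 7 rose and 3 fell (KMT2A, SETD4 and SMYD4) in INM versus hESC, 1 rose (SMYD3) and 3 fell (SMYD5, NSD2 and KMT2E) in SMC versus INM, and 6 rose and 6 fell in SMC versus hESC. The shares were 25.9% and 11.1%, then 3.7% and 11.1%, then 22.2% each way. KMT5A, which places a single methyl group on lysine 20 of histone H4, had 8.81 and 8.75 in hESC, 10.14 and 10.07 in INM, with 10.35 and 10.32 in SMC, and rose by 1.56 in SMC relative to hESC (SE 0.11, adjusted p = 0.000125). SMYD2 had 6.62 and 6.81 in hESC, 8.62 and 8.17 in INM, with 7.75 and 7.94 in SMC, and rose by 1.68 in INM relative to hESC. SUV39H1, the paralogue of SUV39H2, rose by 0.78 in INM and by 0.48 in SMC relative to hESC (SE 0.15 each; adjusted p = 0.0423 for SMC), and NSD2, the paralogue of NSD1, fell by 0.87 (SE 0.12, adjusted p = 0.0019). The call of SUV39H1 in SMC ended without any 1 hESC or SMC array (adjusted p between 0.0052 and 0.19), and that in INM without either hESC array (0.000752 to 0.0648). Among the genes named here, SMYD2, KMT5A, JARID2, JMJD1C and KDM6A kept their calls in all 6 fits that left out 1 array, as did NSD2 in SMC versus hESC. Among 11 other acetyltransferases, NCOA1, KAT6A and NCOA2 rose in INM versus hESC, NCOA2 fell in SMC versus INM at -0.71, and NCOA1 rose in SMC versus hESC at 0.63. These were 27.3% higher and 0% lower, then 0% and 9.09%, then 9.09% and 0% of that list. Each of these calls ended in at least 1 fit with an array left out. The NCOA2 rise was kept in 1 of 6 such fits (adjusted p between 0.00535 and 0.191) and also ended with all probe sets tested, with quantile normalization, in a fit of 2 groups and with the replicate block. The NCOA2 fall was kept in 4 (0.0013 to 0.115), the KAT6A rise in 4 (0.0012 to 0.113), and the NCOA1 rise in 5 in INM (0.000621 to 0.0523) and 2 in SMC (0.00306 to 0.166).

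Partners of the enzymes were also read. Of 26 deacetylase complex partners, 10 rose and 1 fell (GPS2) in INM versus hESC, 0 rose and 1 fell (RBBP4) in SMC versus INM, and 5 rose and 2 fell (SUDS3 and MTA3) in SMC versus hESC. The shares were 38.5% and 3.85%, then 0% and 3.85%, then 19.2% and 7.69%. The fall of RBBP4 was kept in 1 of 6 fits with an array left out (adjusted p between 0.0111 and 0.242). TBL1X, a subunit of the nuclear receptor corepressor complex, rose by 1.35 (SE 0.21) and PHF21A, a CoREST subunit, by 0.84 (SE 0.13) in INM relative to hESC. Of 20 methyltransferase partners, 6 rose and 2 fell (PSIP1 and WDR5) in INM versus hESC, 1 rose (HCFC2) and 4 fell (IWS1, HCFC1, ATF7IP and TRIM28) in SMC versus INM, and 4 rose and 5 fell in SMC versus hESC, which were 30% and 10%, then 5% and 20%, then 20% and 25% of the list. MLLT3, which works with DOT1L in transcription elongation, had 7.16 and 7.47 in hESC, 9.36 and 10.73 in INM, with 8.96 and 9.05 in SMC, and rose by 2.73 in INM relative to hESC (SE 0.40, adjusted p = 0.00339). TRIM28 and ATF7IP, both partners of SETDB1, fell by 0.78 and 0.50 in SMC relative to hESC, and the call of ATF7IP ended without hESC replicate 2 or either SMC array (adjusted p between 0.00509 and 0.0935).

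Of 23 acetyltransferase partners, 8 rose and 4 fell (JADE1, SUPT3H, TADA2A and JADE2) in INM versus hESC, 0 rose and 5 fell in SMC versus INM, and 5 rose and 2 fell (JADE1 and ING5) in SMC versus hESC. The shares were 34.8% and 17.4%, then 0% and 21.7%, then 21.7% and 8.7%. JADE1, a subunit of the HBO1 acetyltransferase complex, had 9.68 and 9.83 in hESC, 8.01 and 8.72 in INM, with 7.49 and 7.54 in SMC, a change of -2.24 in SMC versus hESC (SE 0.23, adjusted p = 0.000577). BRPF1, a subunit of MOZ and MORF complexes, had 7.93 and 8.004 in hESC, 8.84 and 8.86 in INM, with 7.91 and 7.99 in SMC, and was called higher in INM relative to hESC at 0.88 and lower in SMC relative to INM at -0.90. The SAGA subunits TADA3 and TADA2B rose by 0.94 and 0.89 in INM relative to hESC, where KAT2A and the SAGA subunit SUPT3H fell. Of 16 readers of histone marks, 3 rose (MSL3, CBX5 and BRD1) and 1 fell (L3MBTL1) in INM versus hESC, 0 rose and 6 fell in SMC versus INM, and 1 rose (MSL3) and 3 fell (BRD7, L3MBTL1 and PHF20) in SMC versus hESC. These were 18.8% and 6.25%, then 0% and 37.5%, then 6.25% and 18.8% of the readers. Several of these calls were lost in most fits with an array left out: BRD1 was kept in 1 of 6 in both of its comparisons, CBX5 in 2 of 6 in both, L3MBTL1 in 2 of 6 in both, BRD7 in SMC versus INM in 2 of 6 and PHF20 in SMC versus hESC in 2 of 6. The medians of these 4 lists in SMC versus INM, at -0.21, -0.28, -0.16 and -0.27, lay on the same side of 0 as the median of the 49 enzyme genes, beside -0.02 over all genes.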

How the data were processed

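The deposited table holds log2 signals of 33297 probe sets on 6 arrays. Per the submitters' processing notes, RMA and limma were used; their versions, the RMA settings and the genome build were not given in those notes. Values between 1.36 and 14.09 show a log2 scale. Symbols came from the platform annotation: 19460 probe sets had 1 symbol, 1754 several and 12083 none. The Entrez identifiers then gave current RefSeq symbols for 19429 of these (31 kept their own). The probe set with the highest mean was used for the 769 genes with several. Values were not normalized further or filtered. A model of 3 group means was fitted over 18417 genes by lmFit and eBayes (limma 3.58.1, R 4.3.3) (3 residual and 3.56 prior degrees of freedom), two-sided, with Benjamini-Hochberg adjustment and a threshold of 0.05. Intervals are 95% intervals of that fit. An exact test of 2 against 2 arrays cannot give a p under 0.333. The number of arrays limits precision. Folds are ratios of RMA signals, which can understate changes of low signals.

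Members and lists were chosen with earlier results of these data known. Array values are given for enzyme genes called in any comparison, by a rule that names up to 4 called genes per class or list with the largest change and any behind a count of 5 or fewer; further values, including those of uncalled enzymes, were added after the data were seen. Promoters are shown for 3 pairs of paralogues of 1 class called in opposite directions, and not for KDM1A and KDM1B, a choice made after the data were seen. Alternatives were other normalizations, filters and priors, all probe sets or their mean, fits of 2 groups, single arrays left out and a replicate block.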

Additional observations from a re-analysis of the deposited data

How the results depend on the processing

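Counts of called enzyme genes were recomputed under 8 other settings and with each array left out. With median centring over all probe sets there were 23 rises in INM versus hESC and 11 falls in SMC versus INM. Quantile normalization gave 5 falls in INM versus hESC, the low-signal filter 4 rises and 11 falls in SMC versus INM, and a fit of only the 2 groups compared 14 falls in SMC versus hESC. With 1 array left out, INM versus hESC had 7 to 15 rises and 1 to 9 falls, SMC versus INM 1 to 5 rises and 0 to 17 falls, and SMC versus hESC 6 to 14 rises and 3 to 14 falls; these fits have fewer arrays, and the INM pair has the larger spread. Without INM replicate 1, SMC versus INM turned for KAT2B to -0.45 and for MEF2C to 1.19, and without INM replicate 2 these were 0.56 and -1.59; the cause was not tested. Same-numbered arrays deviated from their group means with correlations of 0.07 (INM and hESC), -0.07 (SMC and INM) and -0.12 (SMC and hESC) across genes, so the numbers were not taken as pairs. With the replicate block there were 12 rises and 3 falls in INM versus hESC, 2 and 5 in SMC versus INM, and 11 and 7 in SMC versus hESC, so no count moved by over 1.5 times. With SMC numbers crossed, an alternative chosen after seeing the data, SMC versus hESC had 11 rises and 8 falls. All other counts of enzyme genes stayed within 1.5 times. Single calls also ended under these settings. With all probe sets tested, KDM1A, KDM2B and EHMT2 ended in SMC versus hESC and SETD5 in SMC versus INM. Fits of 2 groups ended KDM5A, HDAC7 and KAT2B in INM versus hESC, and KDM1A and SETD5 in SMC versus INM. The replicate block ended HDAC7 in INM versus hESC, SETD5 in SMC versus INM, and KDM1A and EHMT2 in SMC versus hESC. Signal over background is not given, so low signals such as that of SETDB2 are limited by an unknown background.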
